A study of Mus musculus with 41 samples.

Results

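The 58 genes described here encode developmental transcription factors of the Gata, Tbx, Sox, Pax, sine oculis homeobox (Six2 to Six5), Irx, Lhx, Msx, and Dlx families, with Isl1, Tcf21, Hand1, Hand2, and Meis1. Their rows were found by name, all 58 of them among the 27197 genes of the RNA count table. The question was which of them were on or off in mesothelioma cells with and without Bap1, and in each line.

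RNA of cultured mesothelioma tumor cells was compared between 3 BNC lines (Bap1-/-;Nf2-/-;Cdkn2ab-/-: JB81, JB91, and JB97) and 3 NC lines (Nf2-/-;Cdkn2ab-/-: JB84, JB87, and JB93). Loss of Nf2 and Cdkn2ab was thus shared by all lines. The mice had a mixed background of FVB, Bl6, and 129Ola, and floxed alleles were deleted by an adenovirus with Cre under the CMV promoter, given into the chest cavity, which is not specific to one cell type. In the Cdkn2ab allele Ink4a and Ink4b were deleted in the germline and p19Arf was conditional. Per the paper's methods, the mice also received cyclosporine A in the drinking water before and after the virus. The lines were early passage outgrowths of pieces of primary tumor. No ages were given in the labels, though the paper's methods state the age of the mice, in weeks, at that treatment. The tumor RNA and the chromatin profiles of the series were not analysed here, so polycomb marks at these genes were not measured in what follows.

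Polycomb repressive complex 2 (PRC2) methylates histone H3 at lysine 27 and polycomb repressive complex 1 (PRC1) ubiquitinates histone H2A, and genes of developmental transcription factors are classical targets of both. BAP1 is the catalytic subunit of the polycomb deubiquitinase PR-DUB, which removes that ubiquitin. Factors of these families set regional and cell identity in the embryo, and mesothelium, which derives from lateral mesoderm, expresses several of them.

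The count table held 12377675 to 23936922 reads per line. Expression is given as CPM, reads per 1000000 reads of the library after TMM scaling, which corrects for differences in library composition. Values follow the order JB81, JB91, and JB97 for the BNC lines and JB84, JB87, and JB93 for the NC lines. Bap1 itself was read at 43.2, 44.1, and 38 CPM in the BNC and 61.5, 60.6, and 64.3 CPM in the NC lines, and the groups did not overlap (by edgeR's quasi-likelihood test, log2 fold change -0.57, SE 0.13, and p = 0.039 after Benjamini-Hochberg adjustment). The count covers the whole gene and does not show whether the floxed exons were transcribed.

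The lines were not equally independent. JB81 and JB91 differed with a biological coefficient of variation of 0.0386, and 5 of 10511 genes with at least 100 reads differed more than 2-fold between them. For JB84 and JB93 these values were 0.0578 and 8 of 10545 genes. By contrast, JB97 and JB81 (0.457) and JB87 and JB84 (0.493) were far apart, and the nearest line to JB97 was JB87, an NC line (0.402). Both close pairs differed by more than sampling noise (chi-square per degree of freedom 16.3 and 24.1). The chi-square allows for sampling noise only, so it cannot tell separate lines from the same material prepared or sequenced again. The adjusted p-value of each gene tested is also given with the counts of each close pair summed ("with pairs summed"), which leaves 2 BNC and 2 NC samples. Nothing in the labels states that the lines came from separate mice, so p-values measure the spread between these lines only. The adjusted p-value of Bap1 was 0.495 with pairs summed.

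Markers of cell identity differed between the lines too. Of 10 mesothelial markers, 2 were on in JB81 and in JB91 (Wt1 and Upk3b), 9 in JB97, and 10 in every NC line. Their summed level was 137 to 956 CPM in the BNC lines and 2705 to 3427 CPM in the NC lines. Msln was read at 0.221, 0.442, and 230.0 CPM in the BNC and 2064, 901, and 2151 CPM in the NC lines. Wt1 was read at 76.9 to 132 CPM in all lines, and Krt8 and Krt18 were lower in the BNC lines (log2 fold change -8.12, SE 1.29, adjusted p = 0.0186, and 0.293 with pairs summed for Krt18). The summed level of 7 fibroblast and stroma markers was 7908 to 15120 CPM in the BNC lines and 1253 to 6298 CPM in the NC lines, and came nearly all from Col1a1 and Col1a2. Col1a1 overlapped between the groups, at 6161, 6771, and 3597 CPM in the BNC and 706, 3943, and 818 CPM in the NC lines. Dcn was lower in JB81 and JB91 than in every NC line, at 2.52, 2.65, and 50.9 CPM in the BNC and 6.58, 22.4, and 5.98 CPM in the NC lines. Of these 7 genes Pdgfrb separated most widely, at 174, 178, and 174 CPM in the BNC and 2.31, 23.6, and 2.6 CPM in the NC lines (log2 fold change 4.22, SE 1.01, adjusted p = 0.0447, and 0.332 with pairs summed). Leukocyte markers summed to 4.23 to 6.59 CPM and 4.70 to 5.31 CPM, and endothelial markers to 1.51 to 8.04 CPM and 53.0 to 62.0 CPM, nearly all of the latter from Kdr, with Tie1, Erg, and Cldn5 at 0 in every line. Markers of skeletal muscle (0.221 to 0.310 against 1.02 to 2.72 CPM), neural crest and Schwann cells (2.39 to 90.7 against 129 to 145 CPM), and lung epithelium (0.707 to 11.4 against 0.407 to 3.46 CPM) were also measured. The part of these cell identities in the results on the developmental genes was not tested, and in bulk cultures fewer cells of a type cannot be told apart from less RNA per cell.

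A gene was taken as off in a line at 3 counts or fewer (0.133 to 0.247 CPM), as on at 1 CPM or more, and as low in between. By this measure 33 of the 58 genes (56.9%) were on in at least 1 line, against 47.3% of all genes in the table. The number on per line was 27, 26, and 28 in the BNC lines and 25, 27, and 25 in the NC lines, so the genotypes differed little in how many were on. Of the 33, 22 (66.7%) were on in all 6 lines, where 79.6% of all expressed genes were. A further 2 genes, Tbx3 and Dlx5, were on in 3 BNC and 0 NC lines (6.06%, against 1.38% of all expressed genes), and 0 genes showed the opposite pattern (against 2.31%). The remaining 9 (27.3%, against 16.7%) were on in some lines and showed neither pattern. They were Gata5, Pax6, Six2, Irx1, Lhx1, Lhx2, Lhx9, Dlx2, and Isl1. Among them, Six2 and Lhx1 were on in BNC lines only, and Gata5, Pax6, and Isl1 in NC lines only. Lhx2 was on in every BNC line and in JB87.

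**Figure D1:**
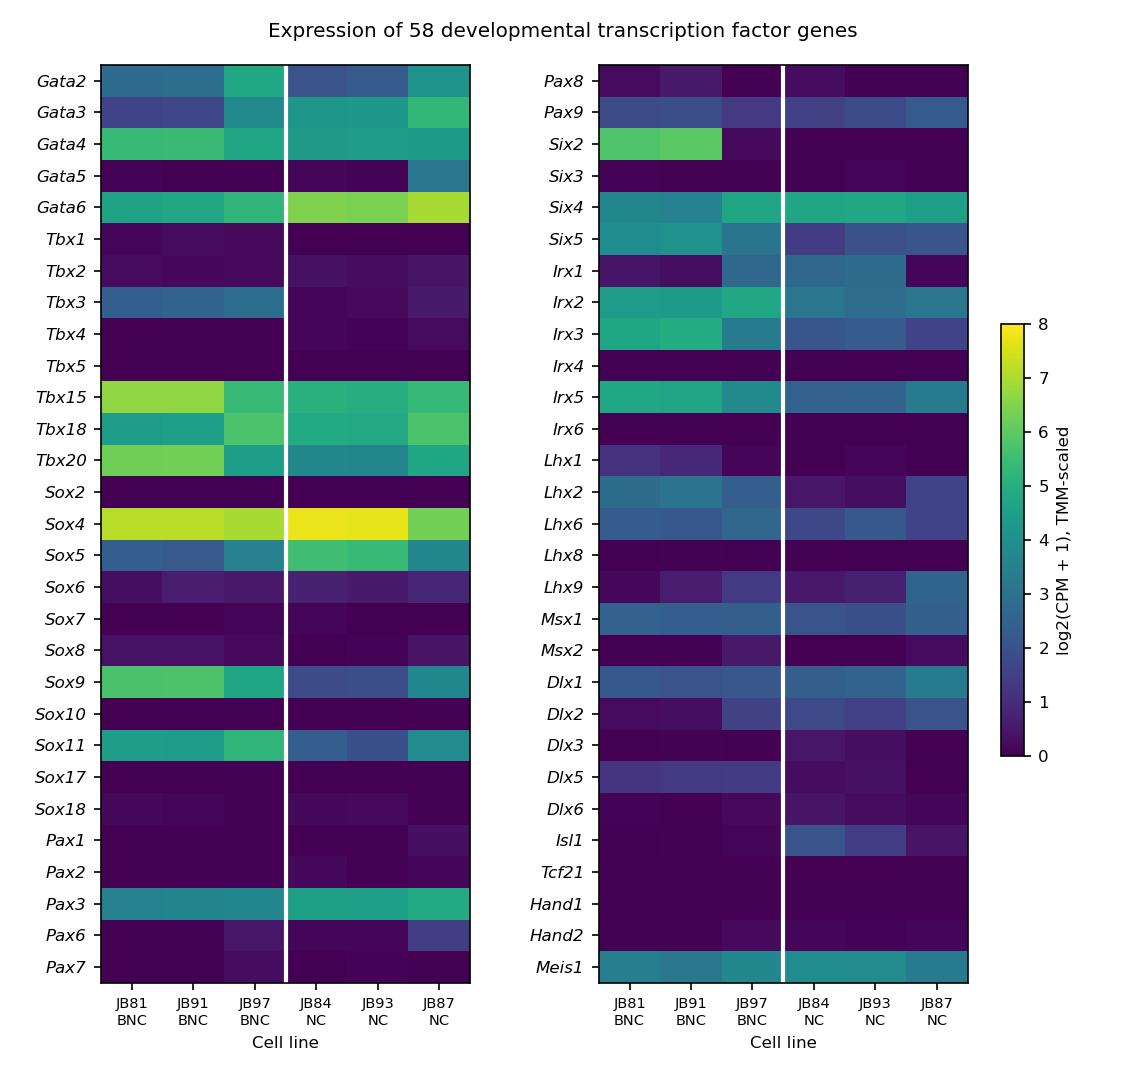
Heat map of the 58 genes (rows) in 6 cell lines (columns), with color for log2(CPM + 1) after TMM scaling, the BNC lines left and the NC lines right of the white line. JB81 resembles JB91 and JB84 resembles JB93 in nearly every row, 22 genes are on in all 6 columns, and 16 are off in all 6.

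The promoters of 6 genes are printed to show the start regions of genes with these patterns, chosen after their values had been seen: Six2, Isl1, and Gata5, each on in some lines only, and Irx2, Irx3, and Six5, each on in all lines and higher in the BNC lines. Windows run from 250 bases before to 50 bases after a start listed by RefSeq for GRCm38.p6 (the mm10 build), 5′ to 3′ on the gene's strand. That start can differ from the outermost annotated start, on which the gene positions given below rest. The Irx3 window lay inside the annotated gene (91798525 to 91802067). The Six5 window ended just before the annotated start of its gene (19094594). Capitals mark each CG dinucleotide, the letters that make up CpG islands, at which polycomb complexes are known to gather.
Six2 (chr17:85688205-85688504, minus strand, 37 CG): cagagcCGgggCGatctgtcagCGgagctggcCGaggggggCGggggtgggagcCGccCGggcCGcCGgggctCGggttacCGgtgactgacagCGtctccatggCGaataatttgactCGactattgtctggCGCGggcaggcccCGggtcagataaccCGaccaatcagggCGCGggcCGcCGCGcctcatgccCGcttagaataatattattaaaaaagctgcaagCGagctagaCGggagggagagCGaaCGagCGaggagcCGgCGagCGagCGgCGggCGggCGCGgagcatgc
Isl1 (chr13:116309639-116309938, minus strand, 37 CG): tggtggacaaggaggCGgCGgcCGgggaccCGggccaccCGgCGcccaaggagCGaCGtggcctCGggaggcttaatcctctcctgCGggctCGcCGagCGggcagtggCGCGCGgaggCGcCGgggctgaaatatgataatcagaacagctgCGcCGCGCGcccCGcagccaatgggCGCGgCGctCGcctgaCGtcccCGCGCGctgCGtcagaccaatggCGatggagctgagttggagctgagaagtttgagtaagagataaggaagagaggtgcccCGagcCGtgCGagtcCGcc
Gata5 (chr2:180334630-180334929, minus strand, 26 CG): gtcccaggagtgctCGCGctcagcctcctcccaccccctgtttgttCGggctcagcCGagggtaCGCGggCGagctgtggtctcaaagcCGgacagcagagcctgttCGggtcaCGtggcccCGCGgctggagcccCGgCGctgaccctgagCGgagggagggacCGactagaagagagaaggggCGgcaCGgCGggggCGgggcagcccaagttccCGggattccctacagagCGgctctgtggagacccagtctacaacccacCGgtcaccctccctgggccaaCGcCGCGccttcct
Irx2 (chr13:72628570-72628869, plus strand, 25 CG): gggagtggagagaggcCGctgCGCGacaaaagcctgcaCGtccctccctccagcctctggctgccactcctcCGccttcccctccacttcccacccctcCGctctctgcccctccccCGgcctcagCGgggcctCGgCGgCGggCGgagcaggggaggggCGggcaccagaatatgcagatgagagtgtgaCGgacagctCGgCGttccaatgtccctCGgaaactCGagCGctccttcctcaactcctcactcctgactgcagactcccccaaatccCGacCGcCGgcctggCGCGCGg
Irx3 (chr8:91801605-91801904, minus strand, 14 CG): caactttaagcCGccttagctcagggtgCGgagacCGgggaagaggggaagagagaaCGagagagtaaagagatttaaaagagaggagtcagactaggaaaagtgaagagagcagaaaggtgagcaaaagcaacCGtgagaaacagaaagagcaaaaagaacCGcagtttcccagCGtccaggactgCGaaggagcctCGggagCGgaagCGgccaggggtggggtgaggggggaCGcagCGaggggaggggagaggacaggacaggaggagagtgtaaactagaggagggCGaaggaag
Six5 (chr7:19094294-19094593, plus strand, 17 CG): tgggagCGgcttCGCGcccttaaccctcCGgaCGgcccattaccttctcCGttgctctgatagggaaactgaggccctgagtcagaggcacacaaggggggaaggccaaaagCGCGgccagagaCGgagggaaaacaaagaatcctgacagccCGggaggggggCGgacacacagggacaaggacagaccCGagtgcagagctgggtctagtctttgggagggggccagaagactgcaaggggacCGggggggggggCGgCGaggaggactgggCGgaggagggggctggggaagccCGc

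A promoter window was listed for 39 of the 58 genes, and where a gene had several windows the one listed at the top was used. These 39 windows held a median of 17 CG dinucleotides (3 to 37), against a median of 7 in the 27025 genes with a window. At least 10 were found in 32 of them (82.1%), against 43.9% of all genes. Members on in at least 1 line had a median of 21.5 (n = 24), and members on in no line 14 (n = 15). Six2 and Isl1 held the most, 37 each, a number that 5.37% of all windows reached, while Sox5 (3), Lhx8 (4), and Lhx9 (6) held the fewest. The windows of Sox5 (143947057 to 143947356) and Lhx9 (138842395 to 138842694) lay inside these genes. Their outermost annotated starts were at 144781977 and 138848577, so these counts do not describe those starts. Other windows also lay away from the outermost annotated start. Examples inside the gene were Tbx4 (85896515 to 85896814, start at 85886422) and Gata3 (9878551 to 9878850, start at 9890034). The Pax2 window (44746351 to 44746650) lay before its start at 44756045. The medians and the TATAAA count carry the same limit. The letters TATAAA, the usual form of the TATA box, occurred on either strand in 1 of the 39 (2.56%), in Tbx4, against 14.2% of all windows. Counts of letters describe these windows only, and Tbx3, Dlx5, Sox9, and 16 other genes had no window listed.

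**Figure D2:**
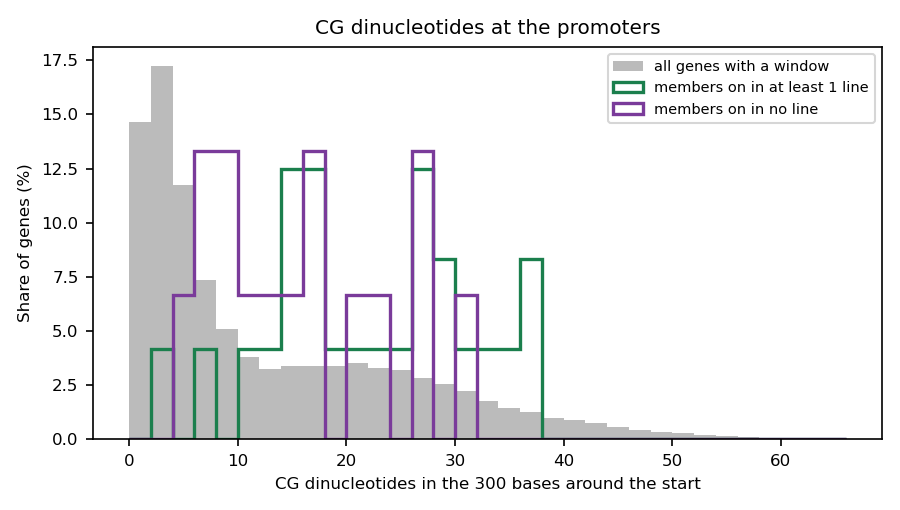
Histogram of CG dinucleotides per 300-base promoter window (x axis) against the share of genes in percent (y axis), for all genes with a window (grey), members on in at least 1 line (green), and members on in no line (purple). The median is 7 for all genes, 21.5 for members that are on, and 14 for members that are not.

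Levels were then compared between genotypes. After removal of genes with few reads, 29 of the 58 genes were tested among 12376 genes. With a threshold of adjusted p under 0.01 and a change over 2-fold, edgeR's quasi-likelihood test called 0 of the 29, where 0.444% of all tested genes were called higher and 0.654% lower in the BNC lines. An unadjusted p-value under 0.05 was reached by 16 of them (55.2%, against 35.6% of all tested genes). DESeq2 called 15 of 37 at the stricter threshold, 11 higher (background 5.52%) and 4 lower (background 8.33%). Of these 15, Six2 had 0 reads in every NC line and Isl1 at most 2 in any BNC line. Both entered the 37 through the group where they were high. Tbx3 and Dlx5, also among the 15, had at most 6 reads in any NC line. The DESeq2 shares were thus in part set by which genes entered. At an adjusted p-value under 0.05 in edgeR, 6 were higher in the BNC lines (Tbx3, Six5, Irx2, Irx3, Irx5, and Dlx5, or 20.7% of those tested, against 5.78% of all genes) and 2 were lower (Gata6 and Pax3, 6.9% against 8.45%), or 27.6% in both directions against 14.2%. Of these, Tbx3 and Dlx5 passed the filter on low counts through the BNC lines alone, so their calls and these shares were in part set by the filter. With the close pairs summed, 0 members and 0% of 12859 genes passed in either direction, while 8 of 30 members (26.7%) did so before adjustment, against 11.7% of all genes. DESeq2 on the summed counts placed 6 of 35 members past the adjusted threshold (17.1%, against 6.85%). They were Gata5, Gata6, Tbx3, Six5, Irx2, and Irx3, and Gata5 was on in JB87 alone. The 8 calls also went to 0 when JB81, JB91, JB84, or JB93 was left out. They numbered 18 of 32 without JB97 (56.2%, against 25.4% of all genes) and 17 of 32 without JB87, where the members were near the background (53.1%, against 51.9%). Each of these 2 fits left only a close pair in one group, so the spread in that group was that of near duplicates. Of the 18, Tbx3, Six2, Lhx1, and Isl1 passed the filter on low counts only through the group where they were high, as did Isl1 of the 17. These shares were thus in part set by the filter and draw no conclusion.

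Separation of the lines does not need a model. In 12 of the 29 genes the lowest BNC line was above the highest NC line (41.4%, against 20.1% of all tested genes), and in 5 the order was the opposite (17.2%, against 21.4%). Tbx3, Dlx5, and Lhx2, 3 of the 12, passed the filter on low counts through the BNC lines alone, so that their separation was in part set by the filter. The median log2 fold change of the 29 was 0.34, against 0.00 for all tested genes, but it was 0.01 without JB97 and 0.55 without JB87. The library names carry 2 number prefixes (one for JB81, JB84, and JB87 and one for JB91, JB93, and JB97), and within the prefixes 27 and 26 of the 29 tested members had the direction of the 6 lines together, 24 of them in both. That direction came from the same lines, and the prefixes divide each close pair between them, so the agreement was in part built in. The share over all tested genes was not computed.

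**Figure D3:**
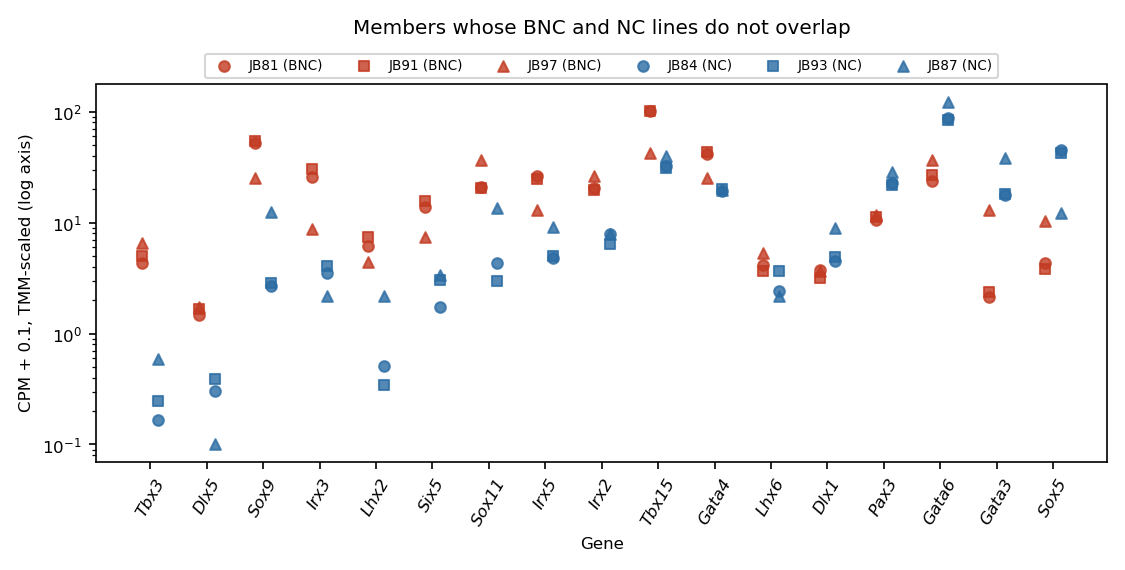
Dot plot of the 17 genes whose BNC (red) and NC (blue) lines do not overlap, with CPM + 0.1 on a log axis and one symbol per line. Tbx3 and Dlx5 show the widest gaps, and JB97 (red triangle) lies nearest to the NC lines for genes such as Sox9, Irx3, and Tbx15.

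**Figure D4:**
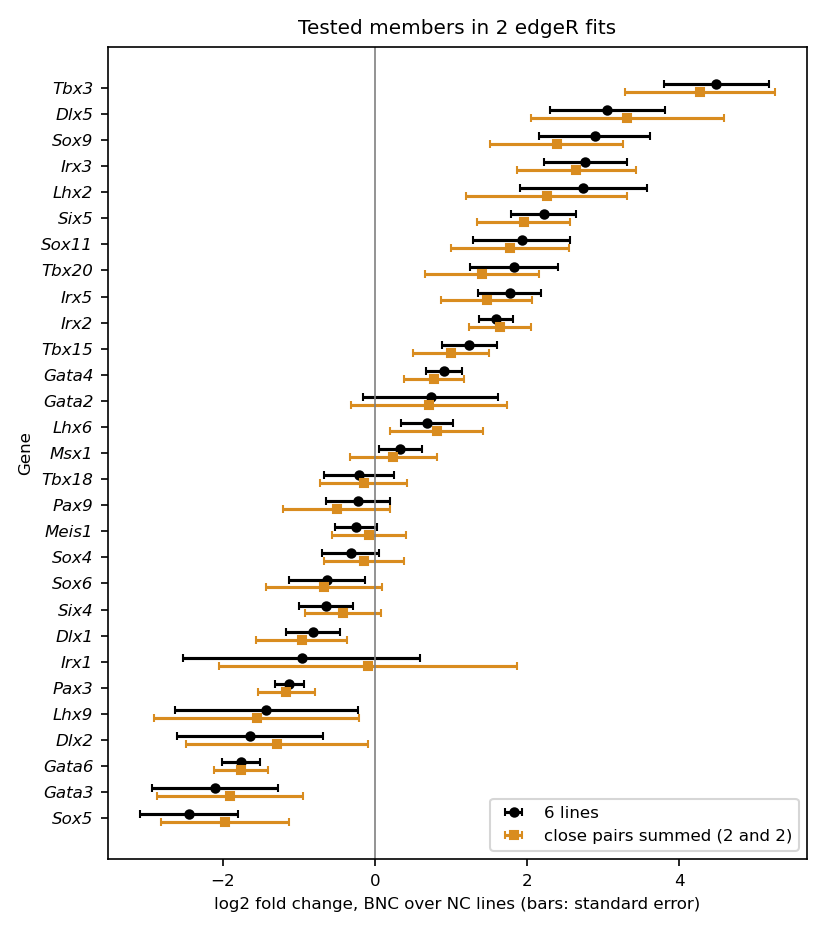
Log2 fold changes of BNC over NC lines (x axis) with standard errors for the 29 tested genes (y axis), from the 6 lines (black circles) and with the close pairs summed to 2 and 2 samples (orange squares). Every gene has the same sign in both, from 4.49 for Tbx3 to -2.45 for Sox5 in the 6 lines, and the standard errors are wider with the pairs summed.

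Among the T-box genes, Tbx3, a repressor needed in limb and mammary gland development (chromosome 5, 119670669 to 119684724 of GRCm38), was read at 4.25, 4.86, and 6.39 CPM in the BNC and 0.0678, 0.494, and 0.145 CPM in the NC lines. It was on in every BNC line, and the NC lines held 1, 6, and 3 reads of it (log2 fold change 4.49, SE 0.69, adjusted p = 0.0172, and 0.306 with pairs summed by edgeR's quasi-likelihood test). With the close pairs summed the log2 fold change was 4.28. Tbx15, a gene of limb and skeletal mesenchyme, was on everywhere at 102, 100.3, and 42 CPM in the BNC and 32.4, 40.0, and 30.6 CPM in the NC lines. JB97 and JB87 were close, and the groups separated mainly through JB81 and JB91 (log2 fold change 1.24, SE 0.36, adjusted p = 0.0677, and 0.536 with pairs summed). Tbx20, a heart gene, was read at 76.8, 77.8, and 20.9 CPM in the BNC and 12.4, 25.2, and 11.7 CPM in the NC lines, with JB97 below JB87 (log2 fold change 1.83, SE 0.58, adjusted p = 0.083, and 0.562 with pairs summed). Tbx18, a gene of epicardium and ureter mesenchyme, was read at 20.2, 21.8, and 51.7 CPM in the BNC and 28.8, 52.5, and 27.3 CPM in the NC lines, highest in JB97 and JB87 of opposite genotypes. The values of Tbx18 and Tbx20 were singled out after they had been seen. Tbx5, the neighbor of Tbx3 at 147.9 kb, was at 0 counts in every line, and Tbx1, Tbx2, and Tbx4 had at most 4 counts in any line.

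The Iroquois genes, which pattern heart, limb, and neural tissue and lie in 2 clusters, held 3 of the 6 higher calls. Irx2 (chromosome 13, 72628820 to 72634198) was read at 20.3, 19.5, and 26.2 CPM in the BNC and 7.74, 7.83, and 6.32 CPM in the NC lines, with the smallest SE of the 3 (log2 fold change 1.59, SE 0.22, adjusted p = 0.0141, and 0.311 with pairs summed). Irx3 (chromosome 8, 91798525 to 91802067) was read at 25.8, 30.1, and 8.6 CPM in the BNC and 3.39, 2.06, and 3.96 CPM in the NC lines, where JB97 was closer to the NC lines than to JB81 and JB91 (log2 fold change 2.77, SE 0.55, adjusted p = 0.0291, and 0.336 with pairs summed). Irx5 (chromosome 8, 92357625 to 92376286), 555.6 kb from Irx3, was read at 26, 24.6, and 12.8 CPM in the BNC and 4.68, 9.06, and 4.87 CPM in the NC lines with JB97 again the lowest BNC line (log2 fold change 1.77, SE 0.41, adjusted p = 0.0416, and 0.453 with pairs summed). With the close pairs summed the log2 fold changes of Irx2, Irx3, and Irx5 were 1.64, 2.65, and 1.47. On chromosome 8, where Irx3 and Irx5 lie, the median of 445 genes was also above the mean of the NC lines, by 0.52, 0.54, and 0.19 on the log2 scale in JB81, JB91, and JB97, and the part of this in the Irx values was not tested.

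Irx1 did not follow Irx2, its neighbor at 665.1 kb. It was read at 0.354, 0.221, and 5.46 CPM in the BNC and 5.5, 0.0824, and 6.08 CPM in the NC lines, on in JB97, JB84, and JB93 and low or off in the other 3 lines. Its state therefore cut across the genotypes (log2 fold change -0.96, SE 1.56, adjusted p = 0.674, and 0.99 with pairs summed). Irx4 and Irx6, which lie in the same clusters, had 0 counts in all 6 lines.

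Of the sine oculis homeobox genes, Six5, the relative of Six4 (chromosome 7, 19094594 to 19098549), was read at 13.8, 15.5, and 7.37 CPM in the BNC and 1.63, 3.3, and 2.94 CPM in the NC lines, and the lowest BNC line was above the highest NC line (log2 fold change 2.22, SE 0.43, adjusted p = 0.0274, and 0.352 with pairs summed). Summing the close pairs gave a log2 fold change of 1.96. Six2, which keeps nephron progenitors undifferentiated, was read at 54.1, 61, and 0.155 CPM in the BNC and 0, 0, and 0 CPM in the NC lines. It was on at a high level in the close pair JB81 and JB91, while JB97 had 3 counts and the NC lines none, so it marked one pair of lines rather than the genotype. The BNC mean was at least 194-fold above the level that 3 counts stand for in the NC lines. Six2 had too few positive lines to be tested by edgeR, and DESeq2 called it in the 6 lines (adjusted p = 0.000405) but not with the close pairs summed (adjusted p = 0.119). Six4 was read at 11.7, 10.8, and 24.8 CPM in the BNC and 25, 22.2, and 26.5 CPM in the NC lines, lowest in JB81 and JB91 (log2 fold change -0.64, SE 0.36, adjusted p = 0.243, and 0.793 with pairs summed). Six3, 55.0 kb from Six2, was off in every line.

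The Dlx genes lie in pairs. Dlx5, a factor of bone and craniofacial development (chromosome 6, 6877805 to 6882085), was read at 1.37, 1.55, and 1.65 CPM in the BNC and 0.203, 0, and 0.289 CPM in the NC lines, or 31 to 35 reads in each BNC line and 0 to 6 in the NC lines. It was on in the BNC lines alone, at a low level (log2 fold change 3.06, SE 0.76, adjusted p = 0.0479, and 0.424 with pairs summed). Its partner Dlx6 at 9.2 kb had 0 to 5 counts and was on in no line. Dlx1, a gene of forebrain interneurons, was on throughout at 3.63, 3.1, and 3.56 CPM in the BNC and 4.41, 8.9, and 4.83 CPM in the NC lines, lower in each BNC line than in any NC line (log2 fold change -0.81, SE 0.36, adjusted p = 0.158, and 0.613 with pairs summed). Dlx2, 9.4 kb from Dlx1, was read at 0.177, 0.221, and 2.01 CPM in the BNC and 2.38, 3.21, and 1.88 CPM in the NC lines, low in JB81 and JB91 and on in the other 4 lines. Dlx3 had at most 6 counts, and none in JB87.

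Among the Sox genes, Sox9, the master factor of cartilage, was read at 51.5, 53.8, and 25 CPM in the BNC and 2.58, 12.4, and 2.75 CPM in the NC lines. JB97 lay between the close pair JB81 and JB91 and the NC lines, and the groups did not overlap (log2 fold change 2.89, SE 0.73, adjusted p = 0.0505, and 0.404 with pairs summed), just short of the looser threshold. Its partner Sox5 went the other way at 4.25, 3.71, and 10.2 CPM in the BNC and 45.3, 12, and 41.9 CPM in the NC lines, with JB97 and JB87 close together in the middle (log2 fold change -2.45, SE 0.65, adjusted p = 0.0552, and 0.471 with pairs summed), and Sox6 was on in no line (0.221 to 0.824 CPM). Sox11, a gene of neural and mesenchymal progenitors, was read at 20.7, 20.5, and 36.7 CPM in the BNC and 4.21, 13.4, and 2.9 CPM in the NC lines (log2 fold change 1.93, SE 0.64, adjusted p = 0.0901, and 0.479 with pairs summed). Sox4, its relative, had the highest level per kilobase of exon of all members, 31.5 CPM per kb averaged over the lines, and ranged from 79.0 CPM in JB87 to 215 CPM in JB84 (log2 fold change -0.32, SE 0.38, adjusted p = 0.563, and 0.936 with pairs summed). An antisense gene, Gm26735, covers 54.6% of the Sox4 exons, and without a stated strand setting the reads of both cannot be told apart. Sox2, Sox10, and Sox17, factors of pluripotent cells, neural crest, and endoderm, had 0 counts in all lines, and Sox7, Sox8, and Sox18 had at most 7.

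Sox9 activates genes of cartilage together with Sox5 and Sox6. Of 12 such genes listed by name 4 were tested, and 1, Col2a1, the main cartilage collagen, was called higher in the BNC lines. It was read at 69, 77.5, and 204 CPM in the BNC and 0.136, 0.165, and 0.0483 CPM in the NC lines (by edgeR's quasi-likelihood test log2 fold change 10.01, SE 0.76, adjusted p = 0.00547, and 0.241 with pairs summed). No NC line had more than 2 reads of it, so that it passed the filter on low counts through the BNC lines alone. Col9a3 was read at 0.709, 0.663, and 0.309 CPM in the BNC and 7.4, 0.247, and 8.01 CPM in the NC lines. Col11a2 was read at 2.21, 3.14, and 1.44 CPM in the BNC and 11.1, 0.494, and 11.9 CPM in the NC lines, and both were highest in JB84 and JB93. Col11a1, the other collagen tested, was read at 1.28, 0.84, and 202 CPM in the BNC and 21.6, 63.9, and 22.4 CPM in the NC lines, highest in JB97 and lowest in JB81 and JB91 (log2 fold change 0.92, SE 1.86, adjusted p = 0.739, and 0.84 with pairs summed). Of the 12, 7 were on in no line.

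In the LIM homeobox family, Lhx2, a gene of eye, forebrain, and limb bud, was read at 6.07, 7.34, and 4.28 CPM in the BNC and 0.407, 2.06, and 0.241 CPM in the NC lines, on in the BNC lines and in JB87 (log2 fold change 2.74, SE 0.83, adjusted p = 0.0741, and 0.514 with pairs summed). Lhx6 was on in all lines at 4.07, 3.58, and 5.2 CPM in the BNC and 2.31, 2.06, and 3.57 CPM in the NC lines, and its groups touched, with JB91 barely above JB93 (log2 fold change 0.69, SE 0.34, adjusted p = 0.198, and 0.667 with pairs summed). Lhx9, a gonad gene, was read at 0.133, 0.575, and 1.55 CPM in the BNC and 0.475, 5.03, and 0.627 CPM in the NC lines, on in JB97 and JB87, 1 line of each genotype. Lhx1, a kidney and head organizer gene, was read at 1.2, 0.884, and 0.103 CPM in the BNC and 0, 0, and 0.0965 CPM in the NC lines, at the border of on in the close pair JB81 and JB91. Its BNC mean was at least 3.67-fold above the 3-count level of the NC lines, and Lhx8 was off everywhere. Isl1, a LIM homeobox gene of motor neurons and pancreatic islets, was read at 0, 0.0442, and 0.103 CPM in the BNC and 3.12, 0.33, and 1.78 CPM in the NC lines, on in JB84 and JB93 alone. No BNC line had more than 2 reads of Isl1, and the NC mean was at least 12.5-fold above the 3-count level in the BNC lines.

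The Gata zinc-finger genes were the family with every member on in some line. Gata6, a factor of endoderm, heart, and lung, was read at 23.4, 26.8, and 36.3 CPM in the BNC and 87.2, 123, and 83.6 CPM in the NC lines, and its BNC lines lay well under its NC lines (log2 fold change -1.76, SE 0.25, adjusted p = 0.0145, and 0.293 with pairs summed). With the close pairs summed the log2 fold change was -1.76. Gata4, its close relative in heart and mesoderm, separated in the opposite direction at 41.3, 43.3, and 24.9 CPM in the BNC and 19, 19.7, and 19.8 CPM in the NC lines (log2 fold change 0.90, SE 0.24, adjusted p = 0.0547, and 0.539 with pairs summed). Gata3 was read at 2.04, 2.25, and 12.9 CPM in the BNC and 17.8, 38.1, and 18 CPM in the NC lines, with JB97 nearer to JB84 than to JB81 (log2 fold change -2.10, SE 0.83, adjusted p = 0.129, and 0.54 with pairs summed). Gata2, a blood and endothelial factor, was read at 6.02, 6.45, and 26.2 CPM in the BNC and 3.12, 16.4, and 3.86 CPM in the NC lines and, like Tbx18, was highest in JB97 and JB87. This pattern of Gata2 was picked out after its values had been seen. Gata5 was read at 0.0443, 0, and 0 CPM in the BNC and 0.0678, 7.75, and 0.0483 CPM in the NC lines, on in JB87 alone with 94 reads, and the NC mean was at least 18.7-fold above the 3-count level in the BNC lines.

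Of the paired box genes, Pax3, which acts in neural crest and muscle progenitors (chromosome 1, 78101267 to 78197134), was on in all lines at 10.4, 11.2, and 11.6 CPM in the BNC and 22.5, 28.4, and 21.8 CPM in the NC lines. Both groups were tight, and the BNC lines lay below the NC lines (log2 fold change -1.12, SE 0.19, adjusted p = 0.0209, and 0.359 with pairs summed). Pax9, a gene of pharyngeal pouches and teeth, was read at 1.49 to 3.79 CPM with overlapping groups (log2 fold change -0.22, SE 0.42, adjusted p = 0.718, and 0.821 with pairs summed). Pax6, the eye factor, was read at 0, 0, and 0.412 CPM in the BNC and 0.0678, 1.81, and 0.0965 CPM in the NC lines and was on in JB87 alone. Pax7 and Pax8 had at most 11 counts in any line, and Pax1 and Pax2 at most 3.

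Msx1, a gene of tooth and palate mesenchyme, was on at 2.90 to 4.74 CPM (log2 fold change 0.34, SE 0.28, adjusted p = 0.416, and 0.893 with pairs summed), and Meis1, a cofactor of homeodomain proteins, at 8.22 to 13.7 CPM (log2 fold change -0.25, SE 0.28, adjusted p = 0.535, and 0.962 with pairs summed). Msx2 had 9 reads in JB97 and at most 2 elsewhere. Tcf21 and Hand1, factors of epicardium and heart, were at 0 counts in every line, and Hand2 had at most 3. In all, 16 of the 58 genes were off in all 6 lines, 8 of them with no read in any line, and 9 more were on in no line without being off in all.

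Ranked by CPM per kilobase of exon averaged over the 6 lines, the highest members after Sox4 were Tbx15 (15.4), Gata6 (9.74), Six2 (9.07), Gata4 (7.17), Tbx18 (7.14), and Sox9 (5.97). The rank of Six2 came from the close pair JB81 and JB91 alone. It reached 25.5 and 28.8 CPM per kb in JB81 and JB91, near the level of Tbx15 in the same lines (27.1 and 26.8), and 0 in the NC lines. Neighbors in this order overlapped in their ranges over lines.

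Lines of one genotype also differed among themselves. Between JB81 and JB97, both BNC, 12 of the 29 tested members (41.4%) differed more than 2-fold, against 15.2% of all tested genes. For the NC lines JB84 and JB87 it was 9 (31.0% against 24.7%). Across genotypes the count was 12 to 21 of 29 (41.4% to 72.4%, against 16.0% to 35.4% of all tested genes), and within the close pairs it was 0. In being on or not on, 4 to 8 of the 33 expressed members differed between lines of different pairs (12.1% to 24.2%, against 7.47% to 13.8% of all expressed genes), and 1 and 0 within the close pairs.

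**Figure D5:**
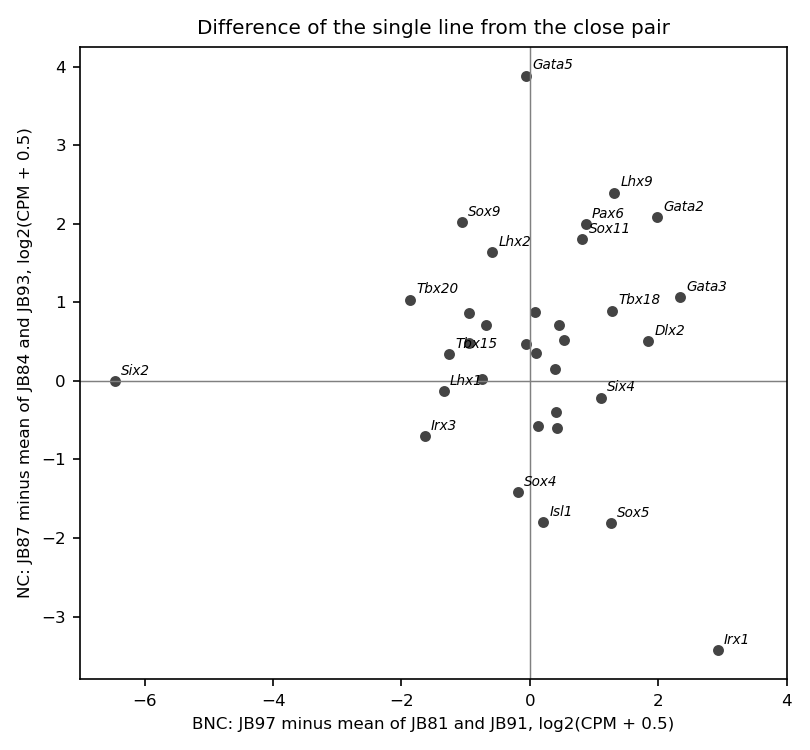
Scatter of the 33 genes on in at least 1 line, with JB97 minus the mean of JB81 and JB91 on the x axis and JB87 minus the mean of JB84 and JB93 on the y axis, both as log2(CPM + 0.5). Six2 lies far left, Gata5 at the top, and Irx1 at the lower right, while Gata2, Gata3, Lhx9, and Tbx18 are higher in the single line of both genotypes.

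The polycomb genes themselves were compared in the same fit. Of 12 PRC2 genes, all tested and on in all lines, 1 passed an adjusted p-value of 0.05 in edgeR and 2 did in DESeq2. In edgeR this was Ezh2, the methyltransferase, at 153, 144, and 161 CPM in the BNC and 66.6, 102, and 62.4 CPM in the NC lines (log2 fold change 0.99, SE 0.22, adjusted p = 0.0374, and 0.41 with pairs summed). Suz12 and Eed, its core partners, did not pass in edgeR, but in both the BNC lines lay below the NC lines without overlap. Suz12, the other DESeq2 call, was read at 137, 130.2, and 146 CPM in the BNC and 199, 184, and 168 CPM in the NC lines (log2 fold change -0.41, SE 0.13, adjusted p = 0.0839, and 0.637 with pairs summed). Eed was read at 52.8, 50.0, and 63.5 CPM in the BNC and 73.5, 67.8, and 69.4 CPM in the NC lines (log2 fold change -0.34, SE 0.14, adjusted p = 0.15, and 0.752 with pairs summed). Of 18 tested PRC1 genes 0 passed at that threshold in edgeR, while 3 did so before adjustment and 2 in DESeq2. The smallest p-value was that of Cbx6 at 129, 137, and 64.6 CPM in the BNC and 47.5, 64.8, and 49.2 CPM in the NC lines (log2 fold change 1.03, SE 0.32, adjusted p = 0.0768, and 0.572 with pairs summed).

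Of 10 tested PR-DUB genes, Asxl1, the BAP1 cofactor, was higher in the BNC lines (log2 fold change 0.83, SE 0.17, adjusted p = 0.0323, and 0.453 with pairs summed), while Bap1 and Kdm1b, a histone demethylase found with PR-DUB, were lower (log2 fold change -0.78, SE 0.18, adjusted p = 0.0419, and 0.53 with pairs summed for Kdm1b). The median log2 fold change was 0.07 for PRC2, 0.02 for PRC1, and 0.22 for PR-DUB, against 0.00 for all tested genes. Of 11 tested cofactors of the Gata, LIM, and sine oculis proteins, Eya4 and Eya1, coactivators of the sine oculis proteins, and Zfpm2, a partner of Gata4, were higher (log2 fold change 1.86, SE 0.19, adjusted p = 0.00814, and 0.293 with pairs summed for Eya4). Zfpm1, the relative of Zfpm2, and Tle4, a corepressor, were lower (log2 fold change -1.26, SE 0.30, adjusted p = 0.0438, and 0.338 with pairs summed for Zfpm1, and log2 fold change -1.44, SE 0.25, adjusted p = 0.0221, and 0.389 with pairs summed for Tle4). The median log2 fold change was -0.13 for the cofactors and -0.43 for the cartilage genes. Over all companion lists 11 of 63 tested genes passed (17.5%, against 14.2% of all tested genes), not all of them named here. With the close pairs summed 0 did, and 1 did without JB81, JB91, JB84, or JB93.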

How the data were processed

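Cultured mesothelioma cells of 3 BNC and 3 NC lines were analysed by RNA sequencing. The authors deposited whole-number counts of reads per Ensembl gene, without normalization. Per the paper's methods, these came from poly-A libraries read from a single end, mapped to mm10 with TopHat 2.0.12 and counted with HTSeq. The strand setting of the counting is not given in the sources used here, so genes that overlap on opposite strands are uncertain. Lines were placed in a group by the line names in the study's column heads, where JB91 and JB97 share the number 2. Another 9 RNA columns and 14 columns of DNA values were not used, because no label ties them to a sample or group.

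Gene symbols were found for 98.5% of 27197 identifiers, and positions and exons came from GENCODE annotation of GRCm38. The 58 members and all companion and marker lists were chosen with earlier results of these data known. Counts were fitted in R 4.3.3 with edgeR 4.0.16 (filterByExpr with a minimum count of 10, TMM scaling, glmQLFit and glmQLFTest, no covariates, Benjamini-Hochberg over 12376 genes), and SE is the size of the log2 fold change divided by the square root of F. DESeq2 1.42.0, the authors' tool, was an alternative, as were other scalings and filters, the replicate number as a block, the number prefix of the library name as a covariate, summing the close pairs JB81 with JB91 and JB84 with JB93, and leaving out each line. The tests were first run on simulated data with 200 changed genes (seed 1). "At least" folds take a line's level at 3 counts as the floor, and floors cover counting error only. Values are given line by line for members with an adjusted p under 0.05, with groups that do not overlap, or with a state that differs within a genotype, and by range for the rest. Replicate numbers did not pair the lines (correlations of same-numbered lines 0.101, -0.069, and 0.082). One companion result is not reported here. Figures were drawn with matplotlib 3.10.9 in Python 3.11.15.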

Additional observations from a re-analysis of the deposited data

How the results depend on the processing

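The count of members past adjusted p under 0.01 and 2-fold was 0 in edgeR, 15 in DESeq2, 3 in DESeq2 with the close pairs summed (an alternative chosen after the data had been seen), and 0 to 10 when a line was left out (7 without JB97 and 10 without JB87). The count past adjusted p under 0.05 was 8, and it was 18 in DESeq2, 0 with the close pairs summed, 0 with the library name prefix as covariate, and 0 to 18 when a line was left out (18 without JB97, 17 without JB87, and 0 without each of the others). With the replicate number as a block it was 0, and with JB97 numbered 3 in that block, an alternative chosen after the data had been seen, it was 1. The fits on summed pairs, with the prefix, and with the block have fewer degrees of freedom. The 11 genes of the polycomb and companion lists became 18 in DESeq2, 0 with the close pairs summed, and 1 to 32 when a line was left out (20 without JB97, 32 without JB87). Counts of separated members (17 to 24) and of members on per line (23 to 29 under other thresholds and scalings) moved by less than 1.5 times. Scaling by library size alone shifted the median log2 fold change of all genes to -0.14 and that of the members to 0.21.

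Signs turned in 9 of 457 refits of single members, all of members that did not pass: Gata2 (-0.30 without JB97), Tbx18 (0.0356, 0.0055, and 0.175 without JB81, JB91, and JB87), Pax9 (0.0141 without JB97 and 0.115 without JB87), Lhx9 (0.439 without JB87), and, with the replicate number as a block, Sox4 (0.138) and Irx1 (0.0908). The 8 members past adjusted p under 0.05 kept their sign in all 126 refits and passed in 57 of them. These 8 were picked by their p-values in the same lines, and their groups did not overlap. Their kept signs were thus largely set by that choice. Depth sets the limit for members with few reads: 3 counts are 0.133 to 0.247 CPM, so an expression below that level was not detectable.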
